A study of Mus musculus with 2 samples.

Results

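The serpin genes were examined in the livers of 2 newborn mice. Serpins are a superfamily of proteins built on a common fold, most of which inhibit serine proteases. All protein-coding genes whose symbol is Serpin followed by a clade letter from a to i and a number were taken, which gave 61 genes among 21474 protein-coding genes and 43346 Ensembl genes in the tables. Both mice were B6NCrl, an inbred C57BL/6N strain, on postnatal day 0, and no genotype change or treatment is given in the labels. They were littermates of 1 dam, with 1 liver and 1 library each, and their sex was not collected. The 2 livers form 1 group, so the design implies a description of levels and of the spread between littermates, with no contrast between conditions. RNA above 200 nt in size was used, 10 ng per library, and ERCC spike-in RNAs were added. A value for the whole liver mixes all its cells, so fewer cells of a type and less RNA per cell cannot be told apart.

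An inhibitory serpin presents an exposed loop, the reactive centre loop, as bait. When a protease cuts the loop, the serpin changes shape and traps the protease in an inactive complex. The liver secretes most of the serpins of blood plasma, which restrain neutrophil proteases, clotting enzymes, plasmin and complement, while a few family members carry hormones or act as chaperones and inhibit nothing. Members of clade B lack a classical secretion signal and mostly act inside cells. Angiotensinogen has the serpin fold but another symbol, so it is not counted here.

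Expected counts summed to 42124582 in pup 1 and to 41443673 in pup 2. The hepatocyte markers were all detected, with albumin, Alb, at 14715 and 13681 TPM in pup 1 and pup 2. TPM is reads per unit of effective length, scaled to a fixed total per library, and it allows genes of different length to be compared. Markers of neutrophils (7 of 7 detected), macrophages (4 of 4) and megakaryocytes (4 of 4) were also present. Pup 2 differed from pup 1 in its markers of striated muscle, whose summed level was 50.2 and 758 TPM in pup 1 and pup 2 with 6 of 6 genes at least 2-fold higher, and of pancreas, at 19.5 and 148 TPM with 10 of 12 higher, against 0.566% of all genes tested. Of the other 2 pancreas markers, Pnlip was at 0 in both livers and Cela1 was at 16.97 and 17.27 TPM.

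The reactive centre loops of the 5 antitrypsin copies are shown because the copies differ more there than over the rest of the coding sequence. Other single stretches were not compared. The copies also supply most of the serpin RNA described next. Humans have a single antitrypsin gene, SERPINA1, while this mouse strain has the copies Serpina1a to Serpina1e. The stretches below are 72 nt long and lie at positions 1081 to 1152 of a coding sequence of 1242 nt, counted from its first base. They were read 5′ to 3′ along the coding strand from the GENCODE M21 transcripts (GRCm38, chromosome 12, minus strand), and capitals mark the 15 positions at which the 5 copies differ.
Serpina1a: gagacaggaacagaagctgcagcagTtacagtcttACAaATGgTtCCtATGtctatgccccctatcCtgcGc
Serpina1b: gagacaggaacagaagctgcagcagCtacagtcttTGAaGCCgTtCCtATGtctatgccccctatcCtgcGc
Serpina1c: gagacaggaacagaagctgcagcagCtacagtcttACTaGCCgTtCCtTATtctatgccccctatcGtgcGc
Serpina1d: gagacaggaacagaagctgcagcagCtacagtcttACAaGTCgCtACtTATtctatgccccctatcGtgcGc
Serpina1e: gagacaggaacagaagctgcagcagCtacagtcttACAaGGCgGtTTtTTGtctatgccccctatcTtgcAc

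Between copies, the loop had a median identity of 87.5% over the 10 pairs of copies and the rest of the coding sequence 97.05%. The first 25 bases of the stretch were identical in all copies and the differences followed them. The codon that starts at position 49 of the stretch, just before a tct shared by all copies, read ATG in Serpina1a and Serpina1b, TAT in Serpina1c and Serpina1d, and TTG in Serpina1e.

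The loops of the 3 most abundant Serpina3 genes are shown for the same reason. Mouse Serpina3 genes are copies related to human SERPINA3, antichymotrypsin. The loops differ in length, at 75 nt in Serpina3k and 81 nt in Serpina3m and Serpina3n, so capitals here run from position 30, the first base at which the 3 differ, to the end (GENCODE M21 transcripts, GRCm38, chromosome 12, plus strand).
Serpina3k: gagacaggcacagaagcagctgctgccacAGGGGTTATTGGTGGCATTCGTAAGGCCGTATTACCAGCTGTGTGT
Serpina3m: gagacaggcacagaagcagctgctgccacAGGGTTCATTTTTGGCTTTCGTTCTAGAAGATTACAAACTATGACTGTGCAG
Serpina3n: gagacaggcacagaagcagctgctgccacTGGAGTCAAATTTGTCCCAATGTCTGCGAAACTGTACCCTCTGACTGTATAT

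Their loops were 69.14% to 76.54% identical in the 3 pairs, against 83.59% to 92.22% for the rest of the coding sequence.

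Serpin genes held 1.90% ± 0.0224 of all TPM (SD, n = 2), a summed 19162 and 18845 TPM in pup 1 and pup 2. A gene was called detected at 1 TPM or more in each liver. By this measure 26 of the 61 members were detected, or 42.6%, against 52.9% of all protein-coding genes, and no member passed in only 1 liver. The levels were uneven. By deposited TPM, the 6 genes at 1000 TPM or more were the 5 antitrypsin copies and the antithrombin gene Serpinc1. They held 80.9% ± 0.0470 of the serpin TPM, but the level of Serpinc1 depends on the transcript length used, as described below. In all, 15 genes reached 100 TPM in both livers, 5 had means between 10 and 100 TPM, and 6 were detected below 10 TPM. The median over all 61 members was 0.18 TPM. The 17 genes listed as plasma serpins of the liver were all detected and held 99.4% ± 0.0284 of the serpin TPM. This list leaves out the undetected Serpina5 and was chosen with earlier results of these data known. Its detection and share therefore describe the list and are not a test.

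**Figure D1:**
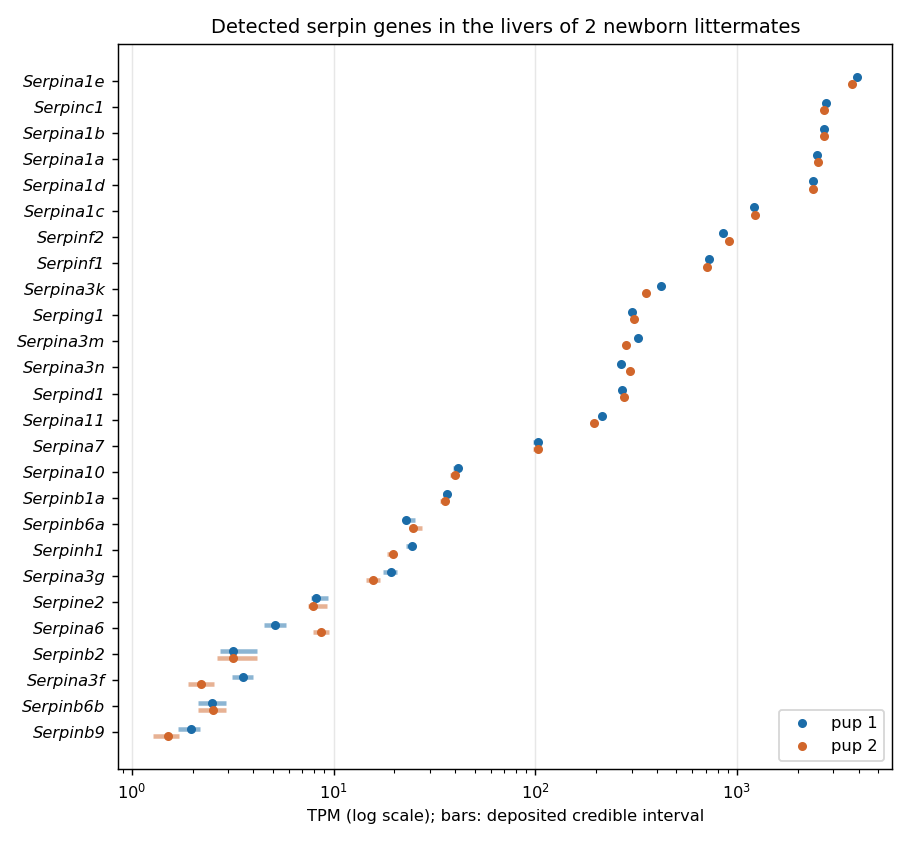
TPM of the 26 detected serpin genes (horizontal axis, log scale) in pup 1 and pup 2, with points for the deposited TPM and bars for the deposited credible interval, which for the most abundant genes is narrower than the point and lies just below it. The 2 livers lie close together for nearly every gene, and Serpina6, at 5.10 and 8.70 TPM, and Serpina3f, at 3.55 and 2.21 TPM, stand furthest apart.

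The antitrypsin copies, related to the human gene whose product is the main plasma inhibitor of neutrophil elastase, held most of the family's RNA. Their levels summed to 12739 and 12549 TPM in pup 1 and pup 2, a mean of 12644 ± 135 TPM (SD, n = 2). At the deposited lengths this was 66.5% of the serpin TPM. Serpina1e (ENSMUSG00000072849.6, chromosome 12, 103946931 to 103958975) was highest, at 3941 and 3719 TPM in pup 1 and pup 2. Serpina1b (103728156 to 103830373) was at 2708 and 2703 TPM, Serpina1a (103853589 to 103863562) at 2489 and 2530 TPM, and Serpina1d (103763594 to 103773592) at 2385 and 2376 TPM. Serpina1c (103894926 to 103904887) was lowest, at 1216 and 1221 TPM. The order of the 5 copies was the same in both livers, and each step of it, as a log2 ratio within each liver, was over 3 SD from 0. As shares of the group's TPM, Serpina1e held 30.3% ± 0.921, Serpina1b 21.4% ± 0.197, Serpina1a 19.8% ± 0.441, Serpina1d 18.8% ± 0.151 and Serpina1c 9.64% ± 0.133.

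Grouped by the loop codon printed above, the 2 copies with ATG held 5197 and 5232 TPM in pup 1 and pup 2, or 41.2% ± 0.638 of the antitrypsin TPM. The 2 copies with TAT held 3601 and 3597 TPM, or 28.5% ± 0.283. Serpina1e alone, with TTG, held 3941 and 3719 TPM, or 30.3% ± 0.921. The ATG copies were thus the largest class in both livers, followed by Serpina1e and then the TAT copies.

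How well reads can be assigned to a copy was measured as the share of 100-nt windows of 1 M21 transcript per gene, the one with the highest TPM, that also occur, letter for letter and on either strand, in another gene. This share was 69.3% in Serpina1c, 61.0% in Serpina1a, 29.3% in Serpina1d, 26.4% in Serpina1b and 18.2% in Serpina1e. The division between Serpina1a and Serpina1c therefore rested on the smallest share of distinct windows, and these copies carry different loop codons. The deposited posterior SD of the counts, which reflects read assignment, was nonetheless small, from 0.083% of the count in Serpina1e to 0.38% in Serpina1c. That SD takes the annotation as complete, and the annotated span of Serpina1b contains that of Serpina1d, so levels of single copies are uncertain while the group's sum does not depend on their division. Of the 61 transcripts searched, 1 per member, 39 had no shared window and 10 had over 10%, including Serpina11 at 41.9%, all of it shared with Gm28577, which had 0 counts in both livers.

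**Figure D2:**
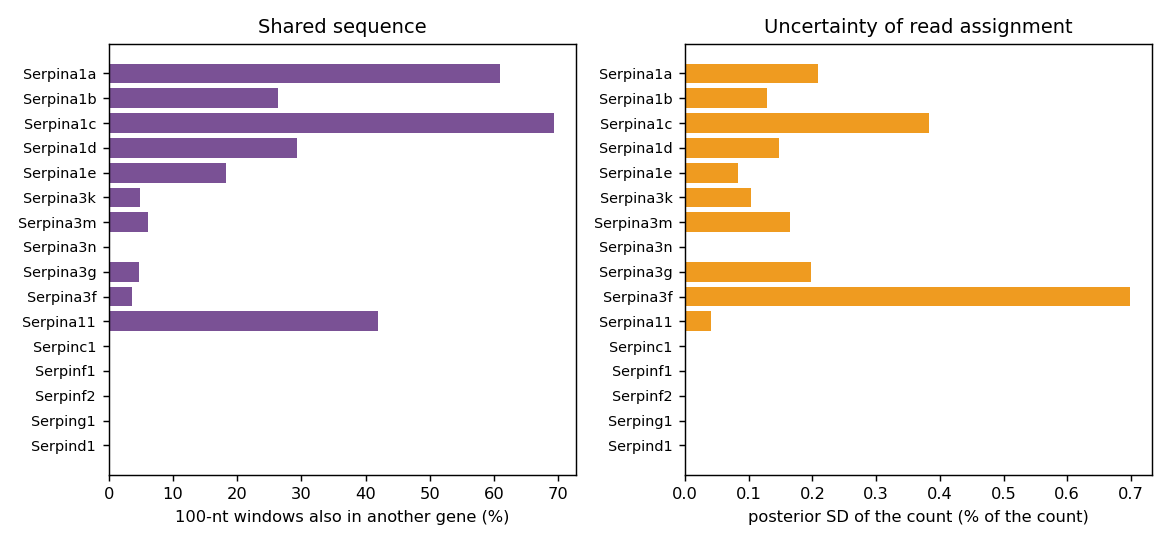
Share of 100-nt windows of the transcript with the highest TPM also found in another gene (left, %) and the deposited posterior SD of the expected count as a percent of the count (right, mean of the 2 livers) for 16 serpin genes. The antitrypsin copies and Serpina11 carry the longest bars on the left, from 18.2% to 69.3%, while every bar on the right is below 1%.

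The promoters of the antitrypsin copies carried a common block. RefSeq's promoter table (GRCm38.p6) gives 300 bases per start, from 250 before it to 50 after. The motif GTTAAT, which matches part of the site bound by the hepatocyte factor HNF1, was searched on both strands, and it occurred in 7.10% of the 32851 promoters in the table. It was found in all 5 antitrypsin copies, in 11 of the 52 serpin members with a promoter, in 6 of the 20 detected ones and in 5 of the 32 undetected ones. The other detected member with it was Serpina7. The 56 bases around the motif are shown 5′ to 3′ with the motif in capitals because they are almost the same in every copy, differing at 1 position.
Serpina1a, chr12:103863625-103863680, minus strand: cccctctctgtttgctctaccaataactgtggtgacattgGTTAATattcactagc
Serpina1b, chr12:103738200-103738255, minus strand: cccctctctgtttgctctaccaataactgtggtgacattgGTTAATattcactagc
Serpina1c, chr12:103904962-103905017, minus strand: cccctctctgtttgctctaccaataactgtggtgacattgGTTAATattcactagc
Serpina1d, chr12:103773634-103773689, minus strand: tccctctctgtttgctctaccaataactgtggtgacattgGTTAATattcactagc
Serpina1e, chr12:103956960-103957015, minus strand: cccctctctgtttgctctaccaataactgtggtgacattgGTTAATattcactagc

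The motif began 16 to 27 bases before the annotated start in Serpina1a to Serpina1d and 78 bases before it in Serpina1e. Over the whole 300 bases the copies were 76.33% to 93% identical in pairs, and the 4 pairs with Serpina1e, at 76.33% to 81.33%, were below all others. The annotated start of Serpina1e lies further downstream of the block, so its 300 bases cover a shifted stretch. Bases left without a partner count as differing, so these lower values do not show a more diverged promoter. The M21 spans of Serpina1b and Serpina1e extend upstream of the promoters used here, to 103830373 and 103958975. Any start further upstream in these 2 genes was not examined. A match is a description of the letters and not evidence of binding. The TATA box motif TATAAA, searched likewise on both strands, occurred in 13.6% of all promoters, in 3 of the 20 detected members and in 12 of the 32 undetected ones.

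The Serpina3 genes, the other large group of copies in clade A, had a sum of 1034 and 952 TPM in pup 1 and pup 2, a mean of 993 ± 57.6 TPM. Of 10 measured copies 5 were detected. Serpina3k (chromosome 12, 104338486 to 104346144) was at 420 and 354 TPM in pup 1 and pup 2, Serpina3m (104338486 to 104394257) at 325 and 283 TPM, and Serpina3n (104406729 to 104414329) at 265 and 296 TPM. Serpina3k was highest in both livers, but Serpina3m was above Serpina3n in pup 1 and below it in pup 2, and the log2 ratio of Serpina3k to Serpina3n on log2(TPM + 1), 0.46 ± 0.28 (SD, n = 2), did not exceed 3 SD. Serpina3g followed at 19.2 and 15.8 TPM and Serpina3f at 3.55 and 2.21 TPM. The other 5, Serpina3b, Serpina3i, Serpina3a, Serpina3c and Serpina3j, had means between 0 and 0.605 TPM.

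The annotated spans of Serpina3k and Serpina3m begin at the same base and overlap, and 4.85% and 6.09% of their windows were shared, so these 2 genes are less certain than Serpina3n, at 0.204%. Within Serpina3m the deposited table divided the TPM between transcripts of 1658 and 1659 nt, at 76.2% and 23.8% in pup 1 and 46.2% and 53.8% in pup 2. These transcripts differ by 1 window of 1560, and their credible intervals overlapped between livers, from 53.6 to 292 TPM in pup 1 and 42.8 to 242 TPM in pup 2 for the shorter, so the division between them is not resolved. Serpina1e also has 2 transcripts, of 1295 and 1575 nt, which differ in 42 and 322 windows. The shorter held 61.5% of its TPM in pup 1 and 59.4% in pup 2.

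Most of these genes lie in the Serpina cluster of chromosome 12, a span of 799.5 kb from 103614786 to 104414329 (GRCm38) with 23 members. Of these 13 were detected, and together they held 73.1% ± 0.216 of the serpin TPM. From Serpina1b to Serpina11, 6 genes in a row were each above 100 TPM. They were followed by the run from Serpina9 to Serpina3c, all 6 below 1 TPM, which holds Serpina12 at 0.12 and 0.11 TPM and Serpina5, the protein C inhibitor, at 0.48 and 0.50 TPM. Serpina1f, which lies beside the antitrypsin copies, and its neighbour Serpina16 had 0 counts in both livers.

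**Figure D3:**
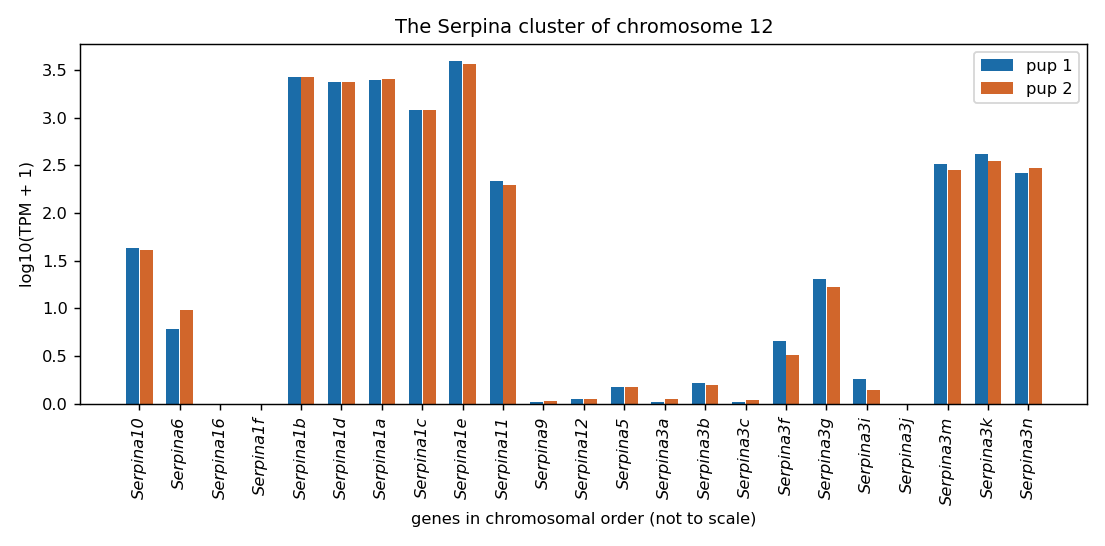
Level of the 23 serpin genes of the chromosome 12 cluster in chromosomal order (horizontal axis, not to scale), as log10(TPM + 1) in pup 1 and pup 2. Bars are tall for the antitrypsin copies and Serpina11 and for Serpina3m, Serpina3k and Serpina3n, with a stretch of 6 genes below 1 TPM from Serpina9 to Serpina3c, and the pattern is alike in both livers.

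Among the inhibitors of clotting, Serpinc1 (chromosome 1, 160978585 to 161005863), which encodes antithrombin, the inhibitor of thrombin and factor Xa, was at 2774 and 2696 TPM in pup 1 and pup 2. Its place in the order depends on the transcript length used. Of its deposited TPM, 49.54% was on a transcript of 742 nt annotated for nonsense-mediated decay and 48.4% on an incomplete one of 1044 nt, and the principal transcript of 4970 nt held 1.79%. If all its counts, 85075 and 83783, are divided by the principal length, the level is 525 and 513 TPM in pup 1 and pup 2, and its rank in the family moves from 2 to 7. Both short transcripts lie mostly within the principal one, sharing 740 and 961 nt with it, and they share 201 nt with each other. Their summed TPM may therefore count the same RNA in part more than once. Of the counts in pup 1, 36.9% and 53.1% were on these 2 transcripts and 9.71% on the principal one. Which length applies was not tested. By share of expected counts, which needs no length, Serpinc1 held 9.57% ± 0.0549 of the serpin counts.

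Serpind1 (chromosome 16, 17331371 to 17343575), heparin cofactor II, which inhibits thrombin, was at 269 and 275 TPM in pup 1 and pup 2. Serpina10, the inhibitor of factor Xa that works with protein Z, was at 41.6 and 40.1 TPM. Its principal transcript, at 3498 nt, held 17.8% of its TPM, and at that length its level is 21.7 ± 0.460 TPM. The fourth gene of this list, Serpina5, was not detected.

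Serpinf2 (chromosome 11, 75431732 to 75439591), which encodes antiplasmin, the main inhibitor of plasmin, was at 852 and 909 TPM in pup 1 and pup 2. Serpine2, protease nexin, was at 8.23 and 7.89 TPM. Serpine3 was at 0.04 and 0.19 TPM. Serping1 (chromosome 2, 84765387 to 84775444), the C1 inhibitor that restrains the complement and kinin systems, was at 302 and 310 TPM.

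The members that do not inhibit proteases ranged widely. Serpinf1 (chromosome 11, 75409769 to 75422701), pigment epithelium-derived factor, was at 728 and 712 TPM in pup 1 and pup 2. Its principal transcript of 1832 nt held 25.5% of its TPM, and at that length its level is 454 ± 12.4 TPM. Serpinh1, also known as Hsp47, a collagen chaperone, was at 24.4 and 19.7 TPM. Serpina7, thyroxine-binding globulin (chromosome X, 139079257 to 139085236), was at 103.2 and 103.2 TPM, while Serpina6, corticosteroid-binding globulin, was at 5.10 and 8.70 TPM. The carrier of thyroid hormone was therefore higher than the carrier of glucocorticoids in both livers, with a log2 ratio of Serpina6 to Serpina7 of -3.76 ± 0.47 (SD, n = 2) on log2(TPM + 1). Serpina11, whose action on proteases was not examined here, was at 214 and 195 TPM.

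**Figure D4:**
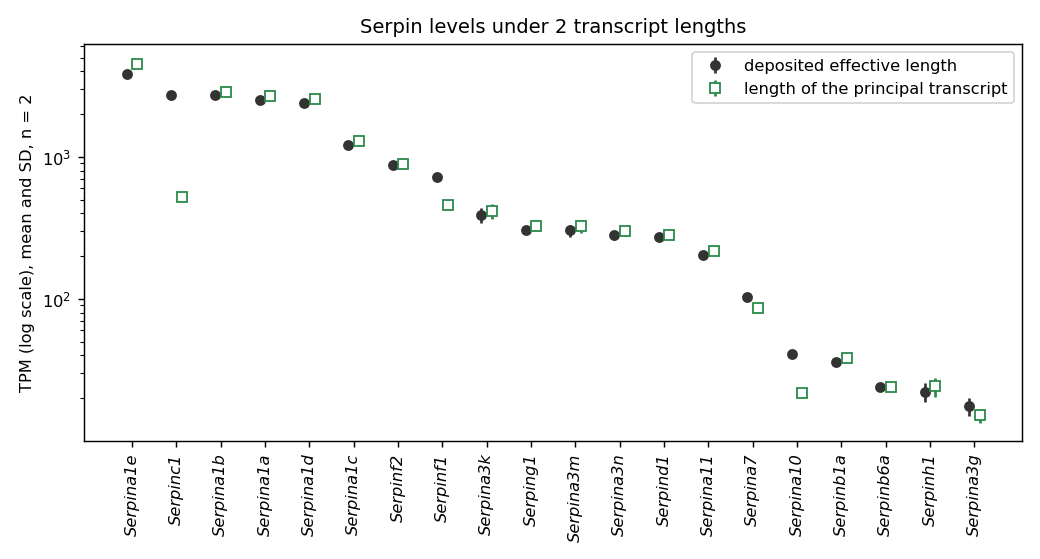
Mean TPM (vertical axis, log scale, SD bars, n = 2) of the 20 most abundant serpin genes from the deposited effective length (filled) and with all counts divided by the length of the principal transcript (open). Serpinc1 moves from 2735 to 519 TPM, with smaller moves down for Serpinf1 and Serpina10, and most other genes move little.

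Clade B has the most members and held little of the RNA. Its 26 genes held 0.356% ± 0.00650 of the serpin TPM. Of these 5 were detected and 16 had 0 counts in both livers. On chromosome 1 it was 1 of 11 members that was detected, and on chromosome 13 it was 4 of 15. Serpinb1a, an inhibitor of neutrophil proteases, was at 36.6 and 35.7 TPM in pup 1 and pup 2, and Serpinb6a, an intracellular inhibitor, at 22.9 and 24.8 TPM. Serpinb2 was at 3.18 and 3.19 TPM, Serpinb6b at 2.51 and 2.54 TPM, and Serpinb9, a granzyme B inhibitor, at 1.97 and 1.51 TPM. Serpinb5, known as maspin and typical of epithelia, had 0 counts in pup 1 and 1 in pup 2. Of the keratinocyte markers 1 of 5 was detected, at a summed 2.87 and 2.34 TPM. Clade I, which includes Serpini1, neuroserpin, at 0.39 and 0.13 TPM, and Serpini2 at 0 and 0.06 TPM, had no detected member.

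Of the 35 undetected members, 19 had 0 counts in both livers. Where no read is counted, up to 3 counts remain possible, which is 0.0712 CPM in pup 1 and 0.0724 CPM in pup 2, and the highest upper bound of their credible intervals was 0.331 TPM. The other 16 had means from 0.01 to 0.605 TPM. At this depth a level below these bounds was not detectable, and the counting intervals and floors given here cover counting error only, while the deposited credible intervals also cover read assignment.

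In the order of the 26 detected genes, 14 of the 25 neighbouring steps were over 3 SD in log2 ratio. The steps that were not are those from Serpinc1 to Serpina1b, those that join Serpina3k, Serping1, Serpina3m, Serpina3n and Serpind1, the step from Serpinb6a to Serpinh1, and the steps from Serpine2 down to Serpinb9. The middle and the low end of the order are therefore not resolved by 2 livers.

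Ratios between the livers are given with pup 1 as the base, on log2(TPM + 1), which understates changes of low genes. No member of the 26 was at least 2-fold apart with credible intervals that do not overlap, against 0.629% of the 12711 genes with a mean of 1 TPM or more. At 1.5-fold the call was made for 1 member, Serpina6, against a background of 1.48% in either direction and 0.999% higher in pup 2. It had 273 counts in pup 1 and 469 in pup 2, and its log2 ratio was 0.67. Its ratio of CPM, counts scaled by the library total, was 1.75 with an exact 95% counting interval of 1.501 to 2.035. This compares 2 animals with 1 library each and has no replicate check. The muscle and pancreas markers were also higher in pup 2, and their part in this difference was not tested.

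At any fold, the intervals were apart for 12 of the 26 members, against 20.1% of all genes. The higher liver was pup 2 for 4 of them and pup 1 for 8, against 6.27% and 13.8% of all genes. Among genes of 100 TPM or more they were apart for 8 of 15 members against 44.3%, so the members' share lay near the background. Serpinc1 was among those with a lower TPM interval in pup 2, although its CPM ratio was 1.00 (exact 95% counting interval 0.991 to 1.01). Within the Serpina3 group Serpina3n was higher in pup 2, with a CPM ratio of 1.14 (exact 95% counting interval 1.12 to 1.17). The other detected genes of the group were lower, with Serpina3k at 0.864 (0.849 to 0.878), Serpina3m at 0.892 (0.873 to 0.911), Serpina3g at 0.875 (0.794 to 0.963) and Serpina3f at 0.632 (0.519 to 0.770). Serpina1e, at 0.970 (0.963 to 0.976), and Serpina11, at 0.933 (0.908 to 0.960), were lower, while Serpina1a was higher at 1.04 (1.03 to 1.05). Serpinf2 was higher at 1.10 (1.08 to 1.11). Serpinh1 was lower in pup 2, at 0.825 (0.770 to 0.883), and its client Col1a1, at 33.1 and 26.0 TPM, was lower as well. The largest log2 ratio in size among the 15 members at 100 TPM or more was 0.24, that of Serpina3k. The median log2 ratio of the 26 detected members was -0.02, against -0.05 for all 12332 detected genes. It became 0.03 with TMM scaling and 0.02 with DESeq2 size factors, so its sign is not a result.

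**Figure D5:**
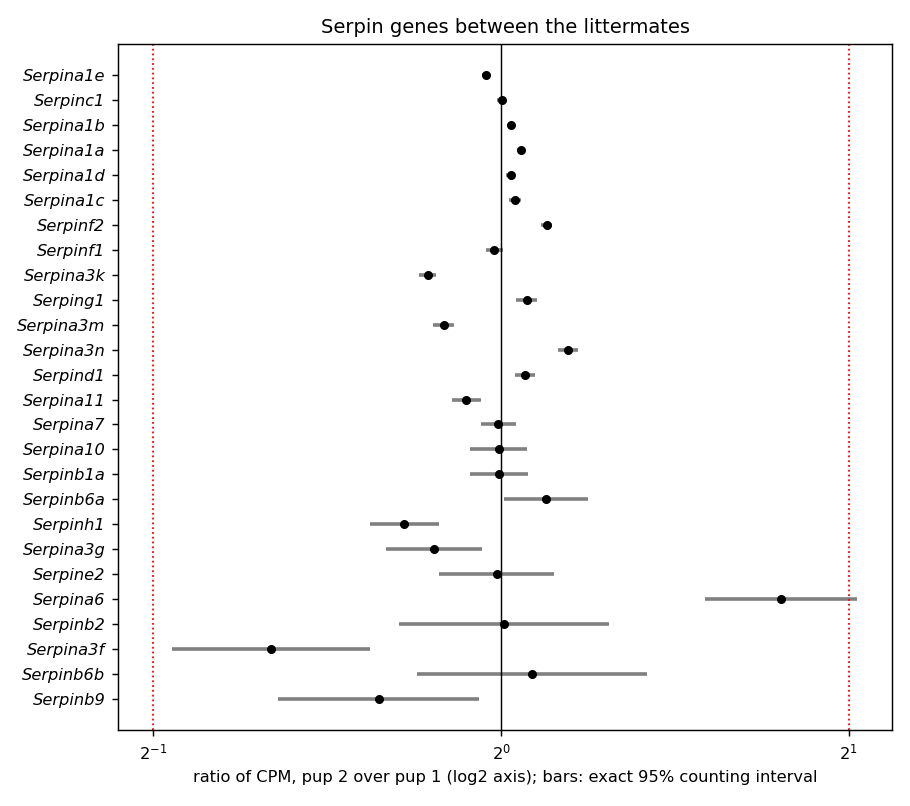
Ratio of CPM in pup 2 over pup 1 (horizontal axis, log2 scale) for the 26 detected serpin genes, with exact 95% counting intervals as bars, a solid line at equality and dotted lines at 2-fold. All points lie within 2-fold, and Serpina6 at 1.75 and Serpina3f at 0.632 lie furthest from equality.

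The proteases that serpins act on were detected in the same livers. Of the proteases made by hepatocytes, 12 of 12 measured were detected and none was at least 2-fold apart between livers, against the same background of 0.629%. Their median log2 ratio was -0.06, against -0.05 over all detected genes. The highest were F2, prothrombin, at 1190 and 1132 TPM in pup 1 and pup 2, Plg, plasminogen, at 1026 and 984 TPM, and F10, factor X, at 475 and 463 TPM. Of 15 proteases of blood cells and other tissues 10 were detected, led by Ctsl, cathepsin L, at 836 and 963 TPM, Elane, neutrophil elastase, at 193 and 167 TPM, and Prtn3, proteinase 3, at 108 and 111 TPM. In this list 2 were at least 2-fold higher in pup 2, against 0.566% of all genes. They were the trypsinogens Prss1, at 0 and 3.87 TPM, and Prss2, at 0.16 and 9.13 TPM. Prss2 is itself 1 of the pancreas markers that were higher in pup 2, so the marker list is not separate from it. The list of 11 cofactors, receptors, collagens and other plasma carriers of the same hormones was detected in full. Its highest genes were Alb, Ttr (transthyretin) and Vtn (vitronectin). Ttr, like Alb such a carrier, was at 2976 and 2515 TPM, and Vtn was at 1787 and 1800 TPM.

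Set against their targets on log2(TPM + 1) within each liver, the plasma inhibitors were mixed. These pairings were chosen after the values were seen. Serping1 exceeded its complement targets C1s1, by 1.49 ± 0.14 (SD, n = 2), and C1ra, by 2.31 ± 0.07, but was below its target F12, factor XII, at -0.23 ± 0.07. Serpind1 was below F2, at -2.09 ± 0.08, and Serpinf2 was at -0.19 ± 0.11 relative to Plg, which is not over 3 SD. Serpina10 was below its cofactor Proz, at -1.10 ± 0.08. Serpinc1 relative to F2 was 1.24 ± 0.02 at the deposited length and -1.26 ± 0.03 at the principal length. Taken singly, its 2 short transcripts were at 1374 and 1345 TPM in pup 1 and at 1335 and 1303 TPM in pup 2. F2 was below each of them, at 1190 and 1132 TPM in pup 1 and pup 2. Which length applies was not tested, so the order of this pair is not settled. Serpinc1 was above F10 at both lengths, by 2.54 ± 0.003 at the deposited and 0.67 ± 0.01 at the principal length. Serpina10 was below F10, at -3.49 ± 0.01. Lower in the range, Serpine2 was above the urokinase gene Plau by 2.37 ± 0.04. Plau, at 0.75 TPM in both livers, was not detected, and adding 1 to so low a level understates the ratio. The clade B inhibitors were below the proteases they were set against. Serpinb1a was at -2.28 ± 0.12 relative to Elane and -1.58 ± 0.05 relative to Prtn3, Serpinb9 at -1.48 ± 0.25 relative to Gzmb, granzyme B, and Serpinb6a at -0.47 ± 0.12 relative to Ctsg, cathepsin G. The antitrypsin group, in contrast, was above Elane by 6.13 ± 0.13, and Serpina3n was above Ctsg by 3.03 ± 0.15. RNA levels of an inhibitor and a protease do not give their protein ratio.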

How the data were processed

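Total RNA was sequenced from 2 newborn livers. The authors' tables, in RSEM's layout, give an expected count per gene: reads matching more than 1 gene are shared out, so counts need not be whole. TPM and FPKM values and credible intervals of TPM were deposited by the authors in the same tables, and the percent of a gene's TPM on each transcript in the transcript tables. Notes beside the deposited tables name mm10 and GENCODE M4. No source used here gives the aligner, the counter or the level of the intervals. The intervals belong to a posterior mean estimate, and TPM can lie outside them for abundant genes. Effective length was mostly the length less 99 nt.

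Symbols, biotypes and coordinates came from GENCODE M21 (GRCm38) by Ensembl identifier, which matched 42462 of 43346 genes. Klkb1 was not analysed here, and values of 1 undetected member are not reported here. Members, lists and tests were chosen with earlier results of these data known. Genes described in full were the 20 highest by mean TPM, the highest of each clade, all Serpina1a to Serpina1e and Serpina3 members and any gene at least 2-fold apart between livers, with the 3 highest of each pathway list. Levels are means with SD over 2 livers. With 1 group no p-value was computed, and SD reflects littermates only. A gene was called apart between livers at a log2 ratio of 1 or more on log2(TPM + 1), a mean TPM of 1 or more and separate credible intervals. TMM factors (edgeR 4.0.16) and size factors (DESeq2 1.42.0) were computed in R 4.3.3 from rounded expected counts for alternatives, and the other steps in Python 3.11.15 with pandas 2.3.3, numpy 2.4.6, scipy 1.17.1 and matplotlib 3.10.9. Sequences came from M21 transcripts and from RefSeq promoters (GRCm38.p6).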

Additional observations from a re-analysis of the deposited data

Results flagged for a closer look

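Of 7 serpin rows outside the protein-coding members, 3 were above the limit that a count of 0 allows. Serpinb10, a polymorphic pseudogene in GENCODE M21, had a mean of 3.125 TPM over the 2 livers, with 121 counts in pup 1 and 144 in pup 2. Serpina4-ps1, a pseudogene of the chromosome 12 cluster, had a mean of 0.625 TPM, with 38 and 15 counts and a ratio of CPM of 0.401 (exact 95% counting interval 0.205 to 0.747). Serpina3h, a transcribed pseudogene, had a mean of 0.13 TPM, with 5.22 and 5.12 expected counts, and 4.21% of its windows were shared with other Serpina3 genes.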

How the results depend on the processing

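A level or share counted as moved when it changed by over 1 SD between livers, and a count of genes when it changed by over 1.5 times. For the median log2 ratio the limit was the SD across the 26 detected members, 0.206. This limit is wide beside the median, so its changes of sign counted as not moved. By these limits 15 of 46 alternatives moved their result and 31 did not. The 31 include leaving out either liver. With 2 livers this always changes a mean by less than 1 SD, so it could not move a level or share. The serpin share of TPM, 1.90%, was 2.11% of expected counts, 1.87% by posterior mean TPM, 2.09% among protein-coding genes, 2.22% without adult globins and 1.78% at principal transcript length. The plasma list's share of 99.4% was 99.1% by counts and 99.3% at principal length. The clade B share of 0.356% was 0.458% by counts, 0.371% by posterior mean TPM and 0.391% at principal length. The antitrypsin sum of 12644 TPM was 12445 by posterior mean TPM and 13884 at principal length, and the Serpina3 sum of 993 TPM was 1058 at principal length. Outside these 46 alternatives, the clade A share of serpin TPM, 73.6%, was 75.4% by counts and 85.6% at principal length, where Serpinc1 was at 519 TPM. The shares of the antitrypsin copies, of the 6 highest genes and of the chromosome 12 cluster were not recomputed at that length. The 0 members at least 2-fold apart became 1 at 1.5-fold and 12 with intervals apart at any fold. The principal length and the last of these were chosen after seeing the data. The 26 detected members were 33 at a TPM of 0.1 and 20 at a TPM of 10. With either replicate left out, the serpin share ranged from 1.88% to 1.92%, the plasma share from 99.345% to 99.385%, the clade B share from 0.352% to 0.361%, the antitrypsin sum from 12549 to 12739 TPM and the Serpina3 sum from 952 to 1034 TPM, and 26 members were detected each time. These ranges are the values of the single livers. No paired analysis was possible because there is 1 group. Depth limits the 19 members at 0 counts, and sequence shared between copies limits the levels of single antitrypsin genes.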
